A study of Saccharomyces cerevisiae with 6 samples.

Results

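The DNA replication machinery of budding yeast (Saccharomyces cerevisiae) was followed through the transcripts of 57 genes that encode the origin recognition complex, the MCM helicase and its activators, the replicative polymerases, the sliding clamp with its loaders, the single-strand binding protein RPA, and the factors that process and protect the fork. The genes were listed by their function, with earlier results of these data known. Of 5656 genes that the array annotation names from probe sets with 1 symbol, these are 57, covered by 65 of 9275 probe sets other than controls. A single probe set covered 56 of the genes, and POL2 had 9. Levels were compared between 3 arrays of yeast whose histone H4 carries alanine in place of lysine 91, here K91A 1, 2 and 3, and 3 arrays of yeast with normal H4, here WT 1, 2 and 3. Total RNA was hybridised in every case. Both strains were grown in YPD, a rich glucose medium, and were taken during exponential growth. The labels give no other allele of either strain, and they are silent on whether replicates were separate cultures. The p-values therefore reflect the spread of these samples alone, which may be technical.

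Replication starts at origins bound by the origin recognition complex, which with Cdc6 and Cdt1 loads the MCM helicase in G1 phase. In S phase the kinases Cdc7-Dbf4 and Cdc28 let Cdc45 and the GINS complex join the MCM ring, and DNA synthesis is then shared between polymerase alpha-primase, polymerase epsilon on the leading strand and polymerase delta on the lagging strand. Many of the polymerase, clamp and RPA genes are transcribed in late G1 through the factor MBF, whereas several MCM genes and CDC6 peak earlier, so in a growing culture their average level also reflects how cells are spread over the cycle. New DNA is packed at once with histones, among them newly made H4, and lysine 91 lies in the part of H4 that meets H2A-H2B.

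The labels of K91A 3 conflict, with K91A in the title, by which it was grouped, and WT in the description. Its median intensity was 745, against 1828 to 3116 on the other 5 arrays, and it had 51 empty cells against 33. Over all probe sets tested, Pearson's r of log2 levels was 0.764 to 0.87 between K91A arrays, 0.918 to 0.976 between WT arrays and 0.644 to 0.779 between the groups. K91A 3 had r of 0.845 and 0.764 with K91A 1 and K91A 2 and of 0.657, 0.651 and 0.644 with WT 1, 2 and 3, and its actin ratio, described next, was 0.877. The ratio of 5' to 3' signal of actin, a measure of RNA integrity and labelling, ran from 0.843 to 0.877 in K91A (mean 0.861 ± 0.0173, SD, n = 3) and from 0.11 to 0.365 in WT (0.196 ± 0.146, SD, n = 3). An exact permutation test, two-sided, gave p = 0.1, which no 3-against-3 split can go below. The part of this ratio in the results below was not tested. No detection calls came with the intensities, so whether a dim probe set lay above background is unknown.

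Few replication genes passed the test between the strains. Of the 51 that passed the filter on dim probe sets, 1, ORC5, was higher in K91A and 5, PSF1, DPB3, DPB4, RFC4 and CTF18, were lower (limma, Benjamini-Hochberg adjusted p under 0.05 over all 6931 probe sets tested, n = 3 each). Over all probe sets tested 15.4% were higher and 14.8% lower (30.2% in either direction), against 1.96% and 9.8% of the replication genes (11.8% in either). In these bulk samples fewer cells at a given stage of the cycle and less RNA per cell cannot be told apart. At an unadjusted p under 0.05 limma gave 2 higher and 13 lower, while 21.6% of all probe sets were higher and 22.2% lower at that level. All K91A arrays lay above all WT arrays for 2 replication genes and below them for 17, which together is 37.3% of the 51. Over all probe sets tested that share was 51.1%, with 23.7% on the higher and 27.5% on the lower side. The median log2 fold change, K91A minus WT, was -0.18 for the replication genes and -0.07 for all probe sets, and 35 of the 51 values were negative. Among all protein-coding genes tested, values were negative for 63.7% of those under 1200 nt and 47.6% of the longer ones. Of the 6 called genes, ORC5 belongs to origin recognition, PSF1 to GINS, DPB3 and DPB4 to polymerase epsilon, and RFC4 and CTF18 to clamp loaders.

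**Figure D1:**
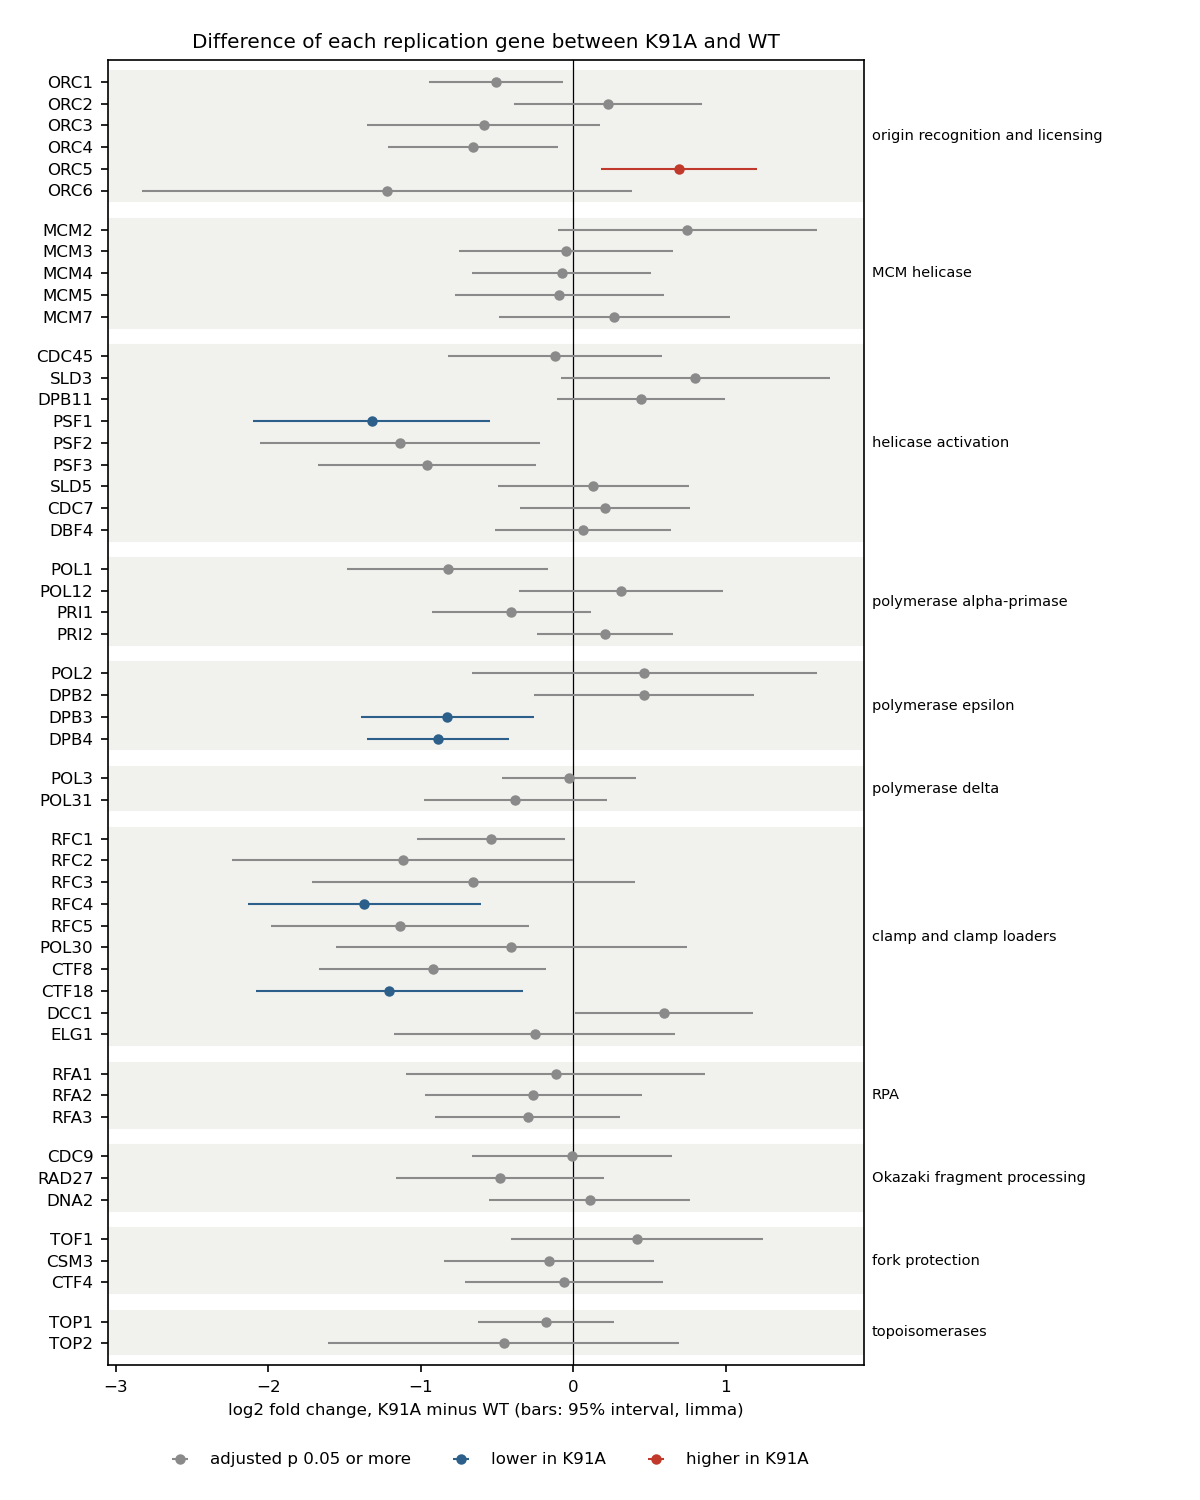
Log2 fold change (K91A minus WT, x axis) of each of the 51 replication genes tested, grouped by role, with 95% intervals from limma (n = 3 each). Red marks the 1 gene called higher, blue the 5 called lower, and grey the 45 that did not pass; most grey intervals span 0.

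Among the origin recognition genes, ORC5, which encodes an ATP-binding subunit, rose in K91A. On a log2 scale, K91A 1, 2 and 3 had levels of 10.47, 10.58 and 10.79, while WT 1, 2 and 3 had 9.72, 9.87 and 10.17, and the same order of arrays is used for every gene below. All 3 K91A arrays lay above all 3 WT arrays, a 1.62-fold difference (log2 fold change 0.70, SE 0.22, limma adjusted p = 0.0493). ORC4 was at 10.86, 10.31 and 11.001 in K91A and at 11.55, 11.28 and 11.32 in WT. ORC1, the largest subunit and a relative of Cdc6 and Sir3, was at 10.62, 10.65 and 10.74 in K91A and at 10.95, 11.31 and 11.28 in WT. Both lay below WT on every K91A array, but neither passed (ORC4, log2 fold change -0.66, adjusted p = 0.0729, and ORC1, -0.51, adjusted p = 0.0773). ORC6, the subunit that does not resemble the others, had -1.22 (SE 0.68, adjusted p = 0.208), with K91A 3 at 7.48 and the other K91A arrays at 9.85 and 10.20. ORC2 had 0.22 and ORC3 had -0.59, and neither passed. The subunits of this complex thus held values of both signs, and 1 of 6 was called.

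CDC6, the ATPase that works with the origin recognition complex to load MCM, was among the 6 replication genes left out as dim, with MCM6, MCM10, SLD2, POL32 and MRC1. With no such filter, and the brightest probe set standing for each gene, 0 replication genes were higher and 6 of 57 lower, beside 13.7% and 12.6% of all probe sets. In that fit CDC6 had a log2 fold change of -0.01 and SLD2, a substrate of Cdc28 at the start of S phase, had -0.08. MCM10, needed to activate the helicase, had -0.59, MRC1, the checkpoint mediator of the fork, also had -0.59, and MCM6 had -0.97 (adjusted p = 0.0521 over all probe sets without the filter). POL32, the small subunit of polymerase delta, was the only 1 of the 6 past the threshold there. Its log2 level was 8.54, 8.01 and 8.46 on the K91A arrays and 9.64, 9.89 and 9.89 on the WT arrays, with no overlap (-1.47 on the log2 scale, SE 0.24, limma adjusted p = 0.00623). These 6 probe sets lay between the 6.24 and the 34.6 percentile of their arrays, where signal may be background.

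No MCM gene passed. The 6 MCM2 to MCM7 proteins form the ring that unwinds DNA, and 5 of their genes were tested, with 0 called and 0 at an unadjusted p under 0.05 in limma's test. MCM2 was at 11.06, 10.64 and 11.22 in K91A and at 9.58, 10.91 and 10.20 in WT, and its WT arrays were spread more widely than the difference between the groups (log2 fold change 0.75, SE 0.36, adjusted p = 0.154). MCM7 was at 11.25, 10.31 and 11.25 against 10.87, 10.83 and 10.30 (0.27, 95% interval -0.49 to 1.02). MCM5 was at 11.36, 10.44 and 11.38 against 11.19, 11.26 and 11.01 (-0.09, 95% interval -0.78 to 0.59). For MCM7 and MCM5 the arrays K91A 1 and K91A 3 lay above every WT array and K91A 2 at or near the bottom. MCM3 (-0.05) and MCM4 (-0.08) had values near 0, with intervals of -0.75 to 0.65 and -0.66 to 0.51.

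The GINS complex, which joins Cdc45 and MCM in the active helicase, is built of Psf1, Psf2, Psf3 and Sld5 in equal number. PSF1 fell in K91A. It was at 10.02, 8.94 and 10.03 on the K91A arrays and at 11.02, 10.86 and 11.08 on the WT arrays, 2.5-fold lower (log2 fold change -1.32, SE 0.33, limma adjusted p = 0.0242). PSF3 was at 10.49, 9.64 and 10.73 against 11.35, 11.21 and 11.17, and PSF2 at 10.70, 10.17 and 9.13 against 11.05, 11.20 and 11.16. Every K91A array lay below every WT array for these 3 genes, but PSF3 (-0.96, adjusted p = 0.0505) and PSF2 (-1.14, adjusted p = 0.0652) did not pass. SLD5, the remaining subunit, had 0.13 (95% interval -0.50 to 0.76) and overlapping groups. The coding lengths of PSF1, PSF2, PSF3 and SLD5 are 627, 642, 585 and 885 nt.

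The other activators of the helicase did not pass. For SLD3, which carries Cdc45 to origins, the log2 fold change was 0.80 (SE 0.37, adjusted p = 0.143), with K91A 2 at 12.21 and the other K91A arrays at 11.38 and 10.71. DPB11, a scaffold that binds phosphorylated Sld2 and Sld3, had 0.44, and CDC45 had -0.12. CDC7, the kinase that phosphorylates MCM, had 0.21 (95% interval -0.35 to 0.76), and DBF4, its regulatory subunit, had 0.06 (95% interval -0.52 to 0.64).

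The results for the polymerases varied by subunit. In polymerase epsilon, the small histone-fold subunits DPB3 and DPB4 fell, while the catalytic subunit POL2 and the second essential subunit DPB2 did not pass. DPB4, which is also a subunit of the chromatin remodeller ISW2, was at 10.73, 10.68 and 10.40 in K91A and at 11.30, 11.49 and 11.67 in WT, 1.85-fold lower (log2 fold change -0.89, SE 0.20, adjusted p = 0.0173). DPB3 was at 10.28, 11.06 and 10.51 against 11.50, 11.49 and 11.33, 1.77-fold lower (-0.83, SE 0.24, adjusted p = 0.04). The groups did not overlap for either gene, and K91A 2 was not the lowest array in either. DPB2 was at 12.33, 11.29 and 12.18 against 11.57, 11.60 and 11.25 (0.46, SE 0.30, adjusted p = 0.281).

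POL2 had 9 probe sets, of which only the brightest passed the filter. It was at 12.92, 11.23 and 12.81 in K91A and at 12.19, 11.99 and 11.39 in WT (0.46, SE 0.48, adjusted p = 0.487). The 8 dim probe sets had log2 fold changes from -0.19 to 1.20 in the fit without the filter, 7 of them above 0. Of the 9, 1 passed there, a dim one that was higher in K91A (1.20, limma adjusted p = 0.0277). It may be shared with other genes, and it does not enter the counts, where the brightest probe set stands for POL2. POL2 and ORC5 are neighbouring genes, by their systematic names YNL262W and YNL261W.

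Polymerase alpha-primase, which lays down the RNA-DNA primer, had 0 of 4 genes called and 1 at an unadjusted p under 0.05 in limma's test. That gene, POL1, the catalytic subunit, was at 11.72, 10.92 and 11.82 in K91A and at 12.51, 12.25 and 12.17 in WT (log2 fold change -0.82, SE 0.28, adjusted p = 0.0633). PRI1, the catalytic primase subunit, was at 11.18, 10.59 and 11.12 against 11.52, 11.33 and 11.27 (-0.41, adjusted p = 0.198). POL12, the regulatory subunit, was at 11.30, 10.55 and 11.50 against 10.94, 10.86 and 10.61 (0.31, adjusted p = 0.425), and PRI2 had 0.21. The groups did not overlap for POL1 and PRI1. In polymerase delta, the catalytic subunit POL3 was at 11.11, 10.76 and 10.91 against 10.83, 11.05 and 10.99 (-0.03, 95% interval -0.47 to 0.41), and POL31 was at 10.72, 10.05 and 10.83 against 10.98, 11.01 and 10.76 (-0.38, adjusted p = 0.287). Neither passed, and 0 of these 2 reached an unadjusted p under 0.05.

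The sliding clamp and its loaders, taken as 1 group, had the lowest median among the role groups of at least 3 tested genes. The median log2 fold change was -0.79 over 10 genes, 9 of them below 0, as were 35 of all 51 replication genes. Values were also below 0 for 63.7% of protein-coding genes under 1200 nt and 47.6% of longer ones. Of the 10, 2 fell and 0 rose (20% called, against 30.2% of all probe sets), and 6 had an unadjusted p under 0.05, as did 43.8% of all probe sets. The 10 genes are short, with a median coding length of 1063.5 nt, against 1863 nt over the 51 replication genes tested. RFC4, a small subunit shared by all clamp loaders, was at 10.48, 9.26 and 9.90 in K91A and at 11.28, 11.39 and 11.07 in WT, 2.58-fold lower (log2 fold change -1.37, SE 0.32, limma adjusted p = 0.0207). CTF18, the large subunit of the alternative loader that acts in sister chromatid cohesion, was at 10.30, 9.46 and 8.84 against 10.81, 10.80 and 10.61, 2.31-fold lower (-1.21, SE 0.37, adjusted p = 0.0472). Both had all K91A arrays below all WT arrays, with K91A 2 lowest for RFC4 and K91A 3 lowest for CTF18.

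RFC5, another shared small subunit, was at 10.61, 9.55 and 10.92 against 11.51, 11.35 and 11.63 (-1.14, SE 0.36, adjusted p = 0.0505). RFC2 had -1.12 (adjusted p = 0.114) and RFC3 had -0.66 (adjusted p = 0.297). RFC1, the large subunit of the main loader, had -0.54 (adjusted p = 0.0864), and ELG1, which serves an unloading complex, had -0.25. The partners of CTF18 differed in sign, with CTF8 at -0.92 (adjusted p = 0.0645) and DCC1 at 0.60 (adjusted p = 0.108). Groups did not overlap for RFC1, RFC2, RFC5 and CTF8 on the lower side or for DCC1 on the higher side, yet none of these passed. POL30, the sliding clamp PCNA itself, had -0.41 (95% interval -1.56 to 0.74). It neighbours RFC5 (YBR088C and YBR087W).

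None of the 3 RPA genes passed, and 0 had an unadjusted p under 0.05 in limma's test. RFA3 was at 12.52, 11.82 and 12.64 in K91A and at 12.64, 12.75 and 12.50 in WT (log2 fold change -0.30). RFA2 was at 12.87, 11.86 and 12.88 against 12.88, 12.70 and 12.82 (-0.26). RFA1, the large DNA-binding subunit, was at 12.79, 11.14 and 12.40 against 12.36, 12.29 and 12.03 (-0.12, 95% interval -1.10 to 0.87). In each of the 3 the array K91A 2 lay below the other 5, while K91A 1 and K91A 3 lay above the WT arrays for RFA1 and among or beside them for RFA2 and RFA3.

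The enzymes of Okazaki fragments also did not pass, with 0 of 3 at an unadjusted p under 0.05. RAD27, the flap nuclease, was at 11.70, 10.80 and 11.76 in K91A and at 12.04, 11.85 and 11.80 in WT (log2 fold change -0.48, adjusted p = 0.243). CDC9, the DNA ligase, was at 11.52, 10.82 and 11.79 against 11.46, 11.49 and 11.21 (-0.01, 95% interval -0.67 to 0.65). DNA2, a nuclease and helicase for long flaps, was at 9.52, 9.61 and 10.13 against 9.76, 9.86 and 9.31 (0.11). Only RAD27 had groups that did not overlap.

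Fork protection genes had values on both sides of 0 and both topoisomerases had negative values, with 0 called and 0 at an unadjusted p under 0.05 in limma's test. TOF1 was at 10.29, 9.52 and 10.64 in K91A and at 9.91, 9.96 and 9.33 in WT (log2 fold change 0.42). Its partner CSM3 was at 10.80, 9.90 and 10.88 against 10.63, 10.74 and 10.67 (-0.16), and CTF4, which ties polymerase alpha to the helicase, was at 12.70, 11.77 and 11.93 against 12.33, 12.14 and 12.10 (-0.06). All 3 had overlapping groups. TOP1, which relaxes twisted DNA, was at 10.39, 10.73 and 10.77 against 10.79, 10.85 and 10.78 (-0.18), and TOP2, which untangles the finished chromosomes, was at 13.22, 12.63 and 11.19 against 12.89, 12.87 and 12.66 (-0.46, SE 0.49). The K91A arrays all lay below the WT arrays for TOP1, K91A 3 only just. For TOP2 the K91A arrays spanned more than the WT arrays on both sides.

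The replication genes varied more among the K91A arrays than among the WT arrays. The median SD of their log2 levels was 0.50 in K91A and 0.14 in WT, and 47 of the 51 had the larger SD in K91A. Over all probe sets tested the medians were 0.32 and 0.20, with the larger SD in K91A for 68.6%. The array K91A 2 was the lowest of the 6 for 28 of the 51 genes (54.9%), against 28.2% of all probe sets tested. K91A 1 was the lowest for 5 (9.8%, against 13.3% of all), K91A 3 for 8 (15.7%, against 16.3%) and a WT array for 10 (19.6%, against 42.2%).

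Set against the WT mean of each gene, the replication genes had a median of 0.07 on K91A 1, -0.54 on K91A 2 and 0.01 on K91A 3, while all probe sets had -0.02, -0.05 and -0.03. Of the 51, 45 lay below the WT mean on K91A 2 (88.2%, against 52.3% of all probe sets). On K91A 1 and on K91A 3, 24 did so (47.1% each, against 51.4% and 51.3% of all). These shares changed with the scaling. With median centring 47.1% lay below on K91A 1, against 60.5% of all probe sets. On the values as deposited all 51 lay below on K91A 3, as did 93.8% of all probe sets. The gap on K91A 2 between the median of the replication genes and that of all probe sets was -0.49, and it was -0.41 with median centring and -0.40 on the values as deposited. On K91A 1 this gap was 0.10 with quantile normalization, 0.31 with median centring and also 0.31 as deposited. On K91A 3 it was 0.04, 0.05 and 0.05. The size of the gap on K91A 1 thus depended on the scaling. The actin ratio of K91A 2 was 0.843, beside 0.865 and 0.877 on the other K91A arrays.

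**Figure D2:**
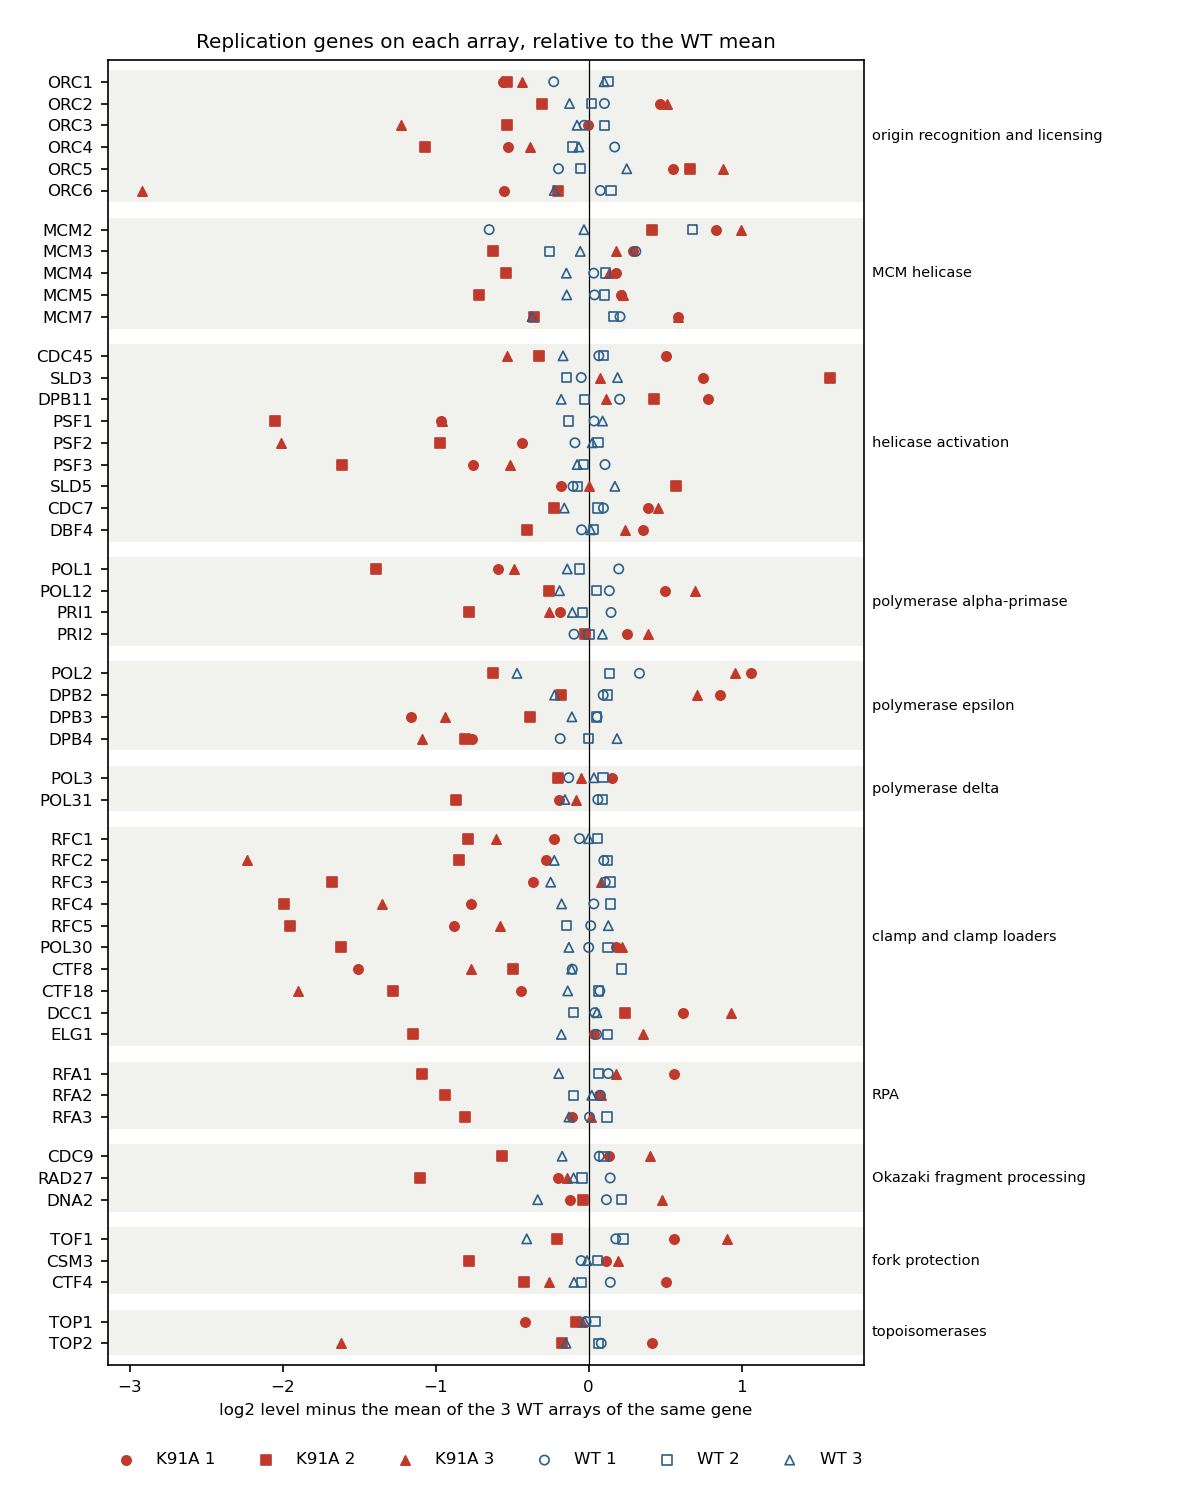
Log2 level of each replication gene on each array minus the mean of the 3 WT arrays (x axis), grouped by role. Filled red symbols are K91A arrays and open blue symbols WT arrays; the red squares (K91A 2) lie left of 0 for 45 of 51 genes.

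The distance of K91A 2 from the mean of K91A 1 and K91A 3 had a median of -0.65 log2 units over the replication genes and -0.06 over all probe sets. It was below 0 for 40 of the 51 (78.4%, against 54% of all probe sets). For 8 genes it was below -1 (15.7%, against 5.57% of all probe sets). POL30 was at 10.24 on K91A 2 and at 12.04 and 12.08 on the other K91A arrays, a distance of -1.82. POL2 (-1.63), RFC3 (-1.54), RFA1 (-1.46), ELG1 (-1.34), RFC5 (-1.22), PSF1 (-1.08) and RFA2 (-1.01) were the others. ORC6 (1.53) and SLD3 (1.17) lay above 1 on the same measure. By role the median distance was -1.01 for RPA, -0.94 for fork protection, -0.86 for MCM, -0.84 for Okazaki fragment enzymes and -0.73 for the clamp group, but -0.05 for origin recognition and 0.29 for the topoisomerases. It was -0.70 for polymerase alpha-primase, -0.49 for polymerase delta, -0.42 for polymerase epsilon and -0.31 for helicase activation. Over the 57 other replication genes tested, described below, it was -0.37. Their groups ran from 0.24 for G1/S transcription and S-phase cyclins to -0.59 for cohesion. These medians are descriptions of 1 array and carry no test.

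**Figure D3:**
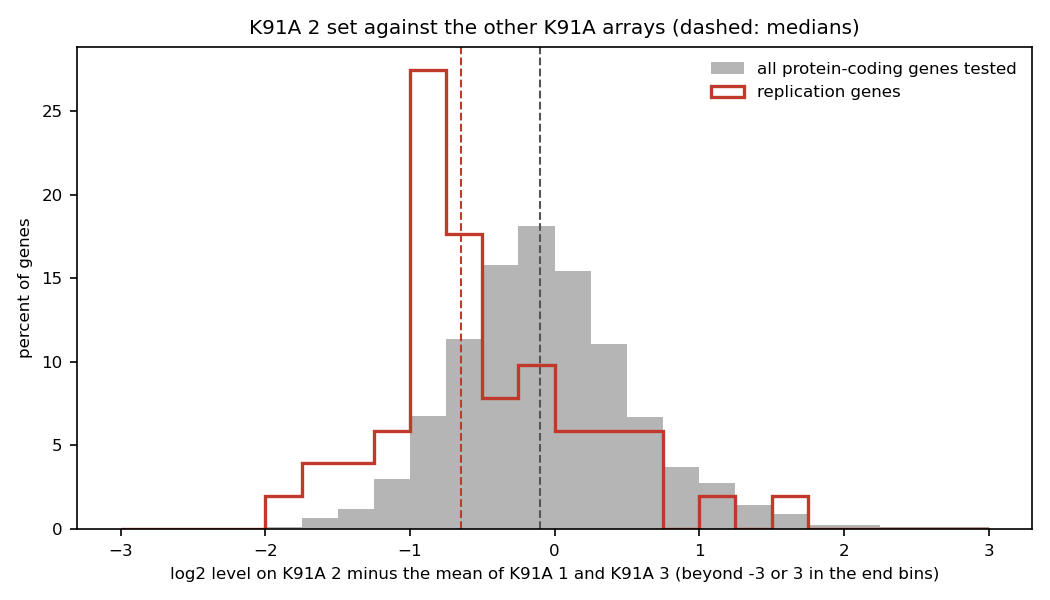
Distribution of the log2 level on K91A 2 minus the mean of K91A 1 and K91A 3 (x axis) as percent of genes (y axis), for the 51 replication genes (red line) and all 5013 protein-coding genes tested (grey). Dashed lines are medians, -0.65 for the replication genes and -0.10 for all protein-coding genes.

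K91A 3 was the lowest array for a share of the replication genes near that of all probe sets (15.7% and 16.3%). Among single genes, ORC6 was at 7.48 there, RFC2 at 10.76, PSF2 at 9.13, CTF18 at 8.84 and TOP2 at 11.19, each below both other K91A arrays. RFC2 was at 12.72 and 12.15 on K91A 1 and K91A 2 and at 13.09, 13.12 and 12.77 on the WT arrays. All 5 were named after their values were seen.

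The counts changed with the arrays used. Without K91A 2, 3 genes were higher and 7 lower, of 53 tested, while 16.5% of all probe sets were higher and 16.8% lower. The 3 higher were POL2 (log2 fold change 1.02, adjusted p = 0.0388), DPB2 (0.80, adjusted p = 0.0267) and DCC1 (0.80, adjusted p = 0.04), and the 7 lower were CTF8, DPB3, DPB4, PSF1, PSF3, RFC4 and RFC5. ORC5 and CTF18 no longer passed. Without K91A 3, the array with conflicting labels, 1 was higher (SLD3, 1.14, adjusted p = 0.03) and 6 were lower, of 50 tested (12.5% and 14.5% of all probe sets). Without K91A 1, 0 were higher and 6 lower, of 52 (11.5% and 10.8% of all). Without WT 1, 0 were higher and 1 lower, of 50 (7.7% and 5.64% of all). Without WT 2 there were 0 and 0, of 48 (6.91% and 5.22% of all), and without WT 3 there were 1 and 2, of 51 (12.6% and 9.61% of all). At an unadjusted p under 0.05 limma gave 1 higher and 8 lower without WT 2, 0 and 8 without WT 1, and 1 and 13 without K91A 1. Shares of all probe sets at that unadjusted level are at hand only for the reported setting (21.6% higher and 22.2% lower). These counts therefore cannot be read against all probe sets. With K91A 3 counted as WT, limma called 0 of the 51 and 0% of all probe sets. Of the 51, 1 was higher and 5 lower at an unadjusted p under 0.05 there.

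**Figure D4:**
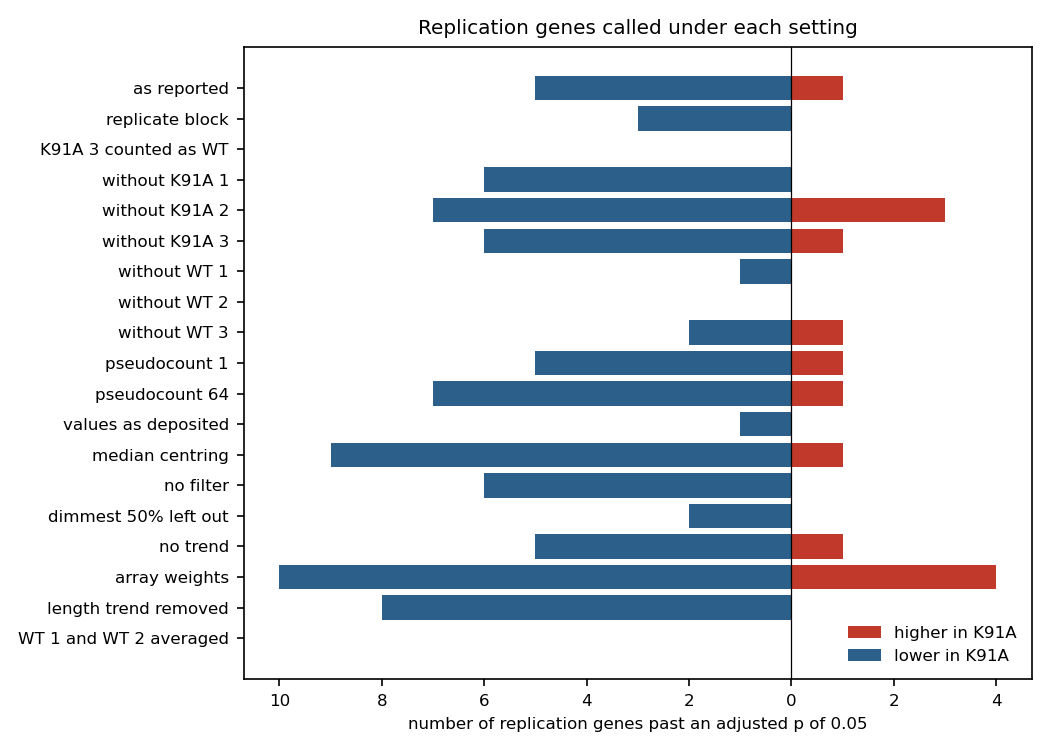
Number of replication genes past an adjusted p of 0.05 under each setting (x axis; blue to the left for lower in K91A, red to the right for higher). The reported setting gives 1 higher and 5 lower, and 3 of the other settings give 0 in both directions.

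DPB4 passed without K91A 1, K91A 2, K91A 3, WT 1 or WT 3, and did not pass without WT 2 (adjusted p = 0.0721). RFC4 and PSF1 passed without any 1 of the K91A arrays, and neither passed without WT 1 (adjusted p = 0.0737 and 0.0847) or WT 2 (0.0806 and 0.0742), while PSF1 also did not pass without WT 3 (0.071). DPB3 passed without K91A 2 alone among the 6 arrays left out in turn, CTF18 without K91A 1 alone, and ORC5 without WT 3 alone. The sign of the log2 fold change of these 6 genes was the same in every setting in which the gene was tested. With the dimmest 50% left out, only DPB3 and DPB4 among them were tested. On the values as deposited, where the median of all probe sets was -0.82 and that of the replication genes -0.89, none of these 6 passed, and RFC2 (-2.04, adjusted p = 0.0213) was the 1 gene called, lower, beside 0.462% of all probe sets higher and 9.68% lower. With 0 called higher there, limma also gave 0 higher at an unadjusted p under 0.05, and 12 lower. No share of all probe sets is at hand for that unadjusted level on the deposited values.

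The lower values were concentrated among short genes. Spearman's rho between log2 fold change and coding length was 0.461 over the 51 replication genes and 0.215 over 5013 protein-coding genes, all measured on the same 6 arrays. Of the 17 replication genes under 1200 nt, a limit chosen after the values were seen, 15 had negative values and 4 fell (PSF1, DPB3, DPB4 and RFC4), with a median of -0.83. Of the 34 at or over 1200 nt, 20 were negative, 1 fell (CTF18) and 1 rose (ORC5), with a median of -0.05. Of all protein-coding genes under 1200 nt, 63.7% had negative values, 18.3% were called lower and 9.94% higher. Of those at or over 1200 nt, 47.6% had negative values, 10.9% were called lower and 19.8% higher. The actin 5' to 3' ratio differed between the same arrays (0.861 against 0.196).

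**Figure D5:**
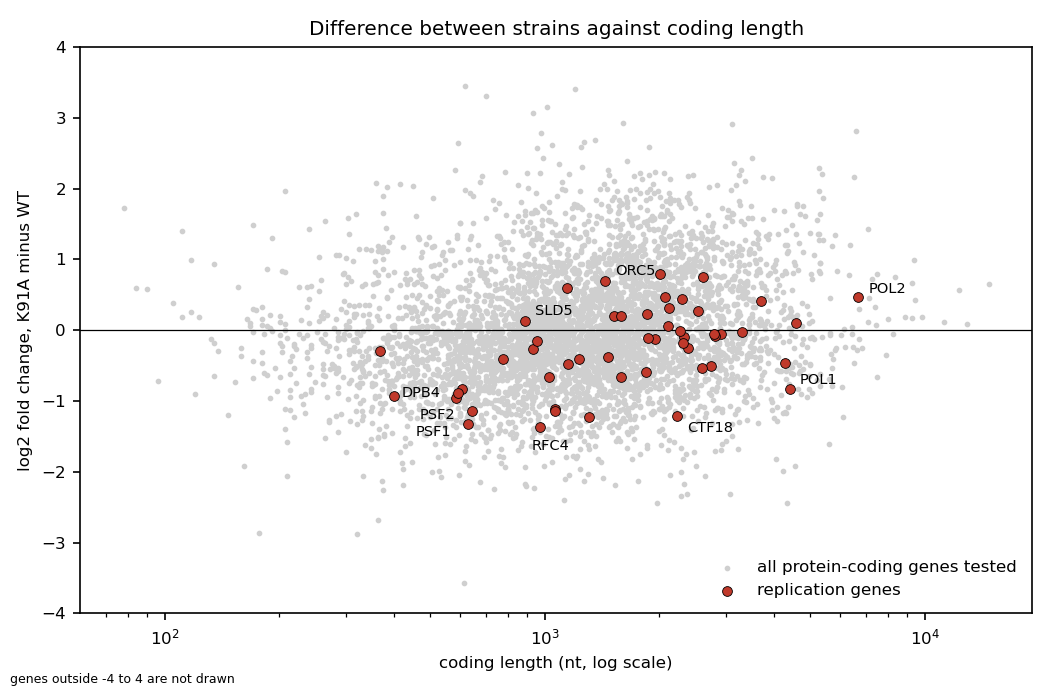
Log2 fold change (K91A minus WT, y axis) against coding length in nt (x axis, log scale) for the 51 replication genes (red) and all 5013 protein-coding genes tested (grey). Short replication genes such as PSF1, PSF2, DPB4 and RFC4 lie below 0, while SLD5 and DCC1 (not labelled), also short, lie at 0.13 and 0.60.

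With each array's trend of level on coding length removed, 0 replication genes were higher and 8 were lower, of 51. Of the 5391 protein-coding probe sets tested in that fit, 15.7% were higher and 15.4% lower. Limma gave 2 replication genes higher and 10 lower at an unadjusted p under 0.05, with no share of all probe sets computed there. PSF1 (-1.08, adjusted p = 0.046), RFC4 (-1.29, adjusted p = 0.0223) and CTF18 (-1.41, adjusted p = 0.0246) remained among the 8. DPB3 (-0.58, adjusted p = 0.0964), DPB4 (-0.63, adjusted p = 0.0534) and ORC5 (0.63, adjusted p = 0.0628) did not pass. The others called lower there were the longer genes ORC1 (-0.75), ORC4 (-0.76), POL1 (-1.19) and RFC1 (-0.77), and RFC5 (-1.09).

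Of 68 other genes that act in or around replication, 57 were tested, and 4 rose and 8 fell (7.02% and 14%, against 15.4% and 14.8% of all probe sets), with a median log2 fold change of -0.02. Among 9 genes of nucleotide supply, RNR3, a damage-inducible subunit of ribonucleotide reductase measured by a probe set that may be shared with other genes, rose by 1.24 (SE 0.24, limma adjusted p = 0.0108). In the same group DUT1, which removes dUTP, had -1.16 (adjusted p = 0.0275) and CDC8, the thymidylate kinase, had -0.59 (adjusted p = 0.0446). Among 8 licensing and origin genes 3 fell, FKH1 (-1.24), a forkhead factor that sets the timing of origins, NOC3 (-1.12) and SLD7 (-0.96), the partner of Sld3, whose adjusted p was 0.0499. Of 6 tested genes of G1/S transcription and S-phase cyclins 1 rose, WHI5 (1.07, adjusted p = 0.0198), the repressor of SBF.

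In the other groups RNH201, the catalytic subunit of RNase H2, fell (-0.83, adjusted p = 0.0149), as 1 of 5 genes of RNase H and flap processing. SGS1, a helicase that resolves recombination intermediates, rose (1.09, adjusted p = 0.0288), as 1 of 10 genes of translesion synthesis and fork restart. PDS5 (-0.84, adjusted p = 0.0386) was the 1 of 9 cohesion genes that fell. Of 10 genes of replication-coupled chromatin assembly, MMS22 rose (1.12, adjusted p = 0.0291) and RTT107 fell (-1.13, adjusted p = 0.0218), 2 factors that both work with the ubiquitin ligase built on Rtt101. K91A 2 was the lowest array for 21 of the 57 (36.8%, against 28.2% of all probe sets). RNR1, the main large subunit of ribonucleotide reductase and named after its values were seen, was at 10.34 on K91A 2 and at 11.89 and 12.15 on the other K91A arrays. Without K91A 2, 14 of 59 were higher and 8 lower (16.5% and 16.8% of all probe sets), without K91A 1, 1 and 5 of 56 (11.5% and 10.8%), and without K91A 3, 2 and 7 of 56 (12.5% and 14.5%). Without WT 1, 1 was higher and 0 lower, of 56 (7.7% and 5.64% of all), with 4 and 9 at an unadjusted p under 0.05 in limma's test. Without WT 2, 0 were higher and 1 lower, of 56 (6.91% and 5.22%), with 5 and 6 unadjusted, and without WT 3, 2 and 4 of 58 (12.6% and 9.61%). The unadjusted counts here have no share of all probe sets beside them.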

How the data were processed

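The authors deposited linear intensity values, 1 for each probe set of each array; the software, background correction and scaling behind these intensities are not given here. Gene names came from the platform annotation, brought up to date by Entrez identifier with RefSeq genes (assembly R64). RefSeq also gave gene length, called coding length because nearly all lengths are multiples of 3. Some are not, such as MMS2 (499 nt) and UBC13 (730 nt), so for part of the genes the length holds more than coding sequence. All 57 genes were found. Of 9275 probe sets other than the 60 controls, 6504 had 1 gene symbol, 328 several and 2443 none. After log2(intensity + 16), arrays were quantile normalized, so directions are relative to the bulk of transcripts and changes of dim genes are understated. Nearly empty probe sets (33) and the dimmest 25% of the rest (2311) were left out. The remaining 6931 were tested with limma (version 3.58.1, R 4.3.3) by lmFit and eBayes, allowing the prior variance to follow the mean level, with Benjamini-Hochberg adjustment and a threshold of 0.05. All p-values given for genes come from limma. The brightest tested probe set stood for a gene. The procedure was checked only on simulated data with equal spread in both groups and changes larger than those of the called replication genes. That check does not show how the procedure behaves at the unequal spread seen here.

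Samples were grouped by title. The members and lists were chosen with earlier results of these data known. By rule, every called gene was named, and array values were given for up to 3 genes of each of 11 role groups with the smallest adjusted p. The number of arrays limits the precision. Other settings tried were a block for the replicate number, K91A 3 counted as WT, each array left out, a pseudocount of 1 or 64, median centring, the deposited values with no normalization, the dimmest 50% left out, no filter at all, no variance trend, array weights, the length trend removed, WT 1 and WT 2 averaged, and every probe set counted. Counts for the other replication genes under these settings were added after seeing the data, as were the values of dim genes from the fit with no filter. Sequences were not used here.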

Additional observations from a re-analysis of the deposited data

How the results depend on the processing

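Counts of replication genes higher and lower were 1 and 5 of 51 as reported. Shares of all probe sets higher and lower stand in parentheses, for protein-coding probe sets only where the length trend was removed. They were 0 and 3 of 51 with the replicate block (12% and 10.1%), 0 and 0 of 51 with K91A 3 counted as WT (0% and 0%), 0 and 1 of 51 on the values as deposited (0.462% and 9.68%), 1 and 9 of 51 with median centring (13.6% and 16.4%), 0 and 6 of 57 with no filter (13.7% and 12.6%), 0 and 2 of 25 with the dimmest 50% left out (14.8% and 14.8%), 4 and 10 of 51 with array weights (21.2% and 22.7%), and 0 and 8 of 51 with the length trend removed (15.7% and 15.4%). With WT 1 and WT 2 averaged they were 0 and 0 of 49 (7.33% and 5.45%), where limma gave 1 and 7 at an unadjusted p under 0.05. At that unadjusted p limma gave 1 higher and 12 lower with the block, and 2 and 16 with no filter. It gave 0 and 5 with the dimmest 50% left out, and 0 and 12 as deposited. Outside the reported setting, shares of all probe sets at that unadjusted level were not computed. A pseudocount of 64 gave 1 and 7 of 51 (15.5% and 14.9%). Leaving out each array in turn gave 0 to 3 higher and 0 to 7 lower. For the other replication genes the counts were 4 and 8 of 57 as reported, 2 and 5 with the replicate block, 0 and 0 with K91A 3 counted as WT (0 and 2 unadjusted), 0 and 1 on the values as deposited (0 and 11 unadjusted), 1 and 2 of 29 with the dimmest 50% left out, 16 and 14 with array weights, 1 and 1 of 56 with WT 1 and WT 2 averaged, and 0 to 14 and 0 to 8 without each array in turn. The cause of these shifts was not tested. No called replication gene changed sign; 27 uncalled ones did in at least 1 setting, 12 of them as deposited. The median log2 fold change of all probe sets moved from -0.07 to -0.18 with median centring and to -0.82 as deposited, and that of the replication genes from -0.18 to -0.25 and -0.89. Deviations of same-numbered arrays from their group means correlated at 0.167, -0.152 and -0.00523, so the numbers were not taken to pair the samples. No depth is known for these intensities, and signal over background is unknown.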
